A study of Mus musculus with 6 samples.

Results

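The caudal homeobox family of the mouse consists of Cdx1, Cdx2 and Cdx4, and the 3 genes were read out by name from 19937 genes measured on 6 one-colour Affymetrix arrays. Each of them was represented by 1 probe set, a group of probes summarised to a single value. The probe sets were 10459153 for Cdx1, 10535771 for Cdx2 and 10601298 for Cdx4. In the RefSeq gene table Cdx1 lies on chromosome 18, Cdx2 on chromosome 5 and Cdx4 on chromosome X. Of the arrays, 3 carried total RNA of embryonic stem cells exposed for 24 h to CHIR99021 (3 µM), which blocks the kinase GSK3 and so spares β-catenin from degradation. The other 3 carried RNA of the same cells exposed for 24 h to XAV939, which blocks tankyrase and so lowers β-catenin. The sample labels put XAV939 at 3 µM, whereas the treatment protocol names 1 µM. Both groups were grown in serum with LIF on feeder cells derived from DR4 mice and came from 1 V6.5 line with a biotin-acceptor and 3xFLAG tag knocked into Ctnnb1, the β-catenin gene, with the biotin ligase BirA (Ctnnb1-BioFLneo;BirA). An untreated group was not analysed here, so each difference is one between the compounds. Nothing in the labels says that replicates were separate cultures, and p-values therefore measure the spread between these arrays, which may be technical.

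Caudal proteins are homeodomain transcription factors related to fly caudal. In the mouse embryo they act in the posterior epiblast and tail bud, where they are switched on by Wnt, FGF and retinoic acid signals, set the expression of Hox genes and keep axial progenitors growing. Cdx2 has an additional early role in the trophectoderm, the outer layer of the blastocyst that forms the placenta, and Cdx1 and Cdx2 maintain the identity of the intestinal epithelium in the adult. Cdx4 is best known for its part in forming embryonic blood progenitors. Cdx1 is a well-studied direct target of β-catenin with TCF/LEF factors, its DNA-binding partners.

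The RMA levels, log2 values that can be compared between arrays for the same probe set, had medians of 6.04 to 6.10 per array over all genes. Arrays of 1 treatment correlated across genes at 0.997 to 0.999 (Pearson), and arrays of different treatments at 0.994 to 0.995. XAV939 replicate 1 had the lowest mean correlation with its own group (0.997). The differences of the caudal genes are given with and without it, while most other differences are given with it only. Defining stem cell markers were present, with Pou5f1 averaging 11.33 after CHIR99021 and 11.51 after XAV939. Over all genes 5.31% passed as higher with CHIR99021 and 4.34% as lower, at an adjusted p under 0.05. Of 10 such markers, 5 rose with CHIR99021, 2 fell (Utf1 by 0.67 and Tdgf1 by 0.63 on the log2 scale) and 3 did not pass, and Tfcp2l1 rose by 1.38. Markers of feeder fibroblasts differed with treatment: 8 of 18 (44.4%, against 5.31% of all genes) rose with CHIR99021 and none fell, and the sum of their linear levels was 3299 to 3574 on the CHIR99021 arrays and 2413 to 2490 on the XAV939 arrays. Among them, Col1a1 differed by 1.05 ± 0.05 and Tagln by 0.67 ± 0.07 (log2, SE), while Dcn, Lum and Postn did not pass. A linear sum is weighted towards genes of high level, and Tagln averaged 10.23 after CHIR99021 and 9.56 after XAV939. The part of feeder cells in the results was not tested.

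All caudal genes were higher after CHIR99021, Cdx1 and Cdx2 about equally and Cdx4 much less. Cdx1 had log2 levels of 7.89, 7.75 and 8.22 on CHIR99021 replicates 1, 2 and 3, against 6.82, 6.07 and 6.10 on XAV939 replicates 1, 2 and 3. The treatments did not overlap, and XAV939 replicate 1 stood above the other XAV939 arrays. The difference was 1.62 ± 0.18 (log2, SE of the limma fit), a 3.08-fold rise with a 95% interval of 2.32-fold to 4.08-fold. In limma's moderated test over all genes its adjusted p was 2.44e-04.

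Cdx2 had log2 levels of 7.50, 7.68 and 7.83 on the CHIR99021 arrays, against 6.21, 5.85 and 6.07 on the XAV939 arrays. The lowest CHIR99021 array lay 1.29 log2 units above the highest XAV939 array. The rise was 3.09-fold (95% interval 2.64-fold to 3.61-fold, log2 difference 1.63 ± 0.10), with a limma adjusted p of 5.12e-06.

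Cdx4 had log2 levels of 5.25, 5.49 and 5.35 on the CHIR99021 arrays, against 5.04, 4.98 and 5.05 on the XAV939 arrays. The groups were again apart, but by 0.20 log2 units between the lowest CHIR99021 and the highest XAV939 array. The rise was 1.27-fold (95% interval 1.14-fold to 1.40-fold, log2 difference 0.34 ± 0.07), with a limma adjusted p of 0.00854. The Cdx4 call was lost at an adjusted p of 0.0560 when all probe sets, named or not, were fitted and adjusted together. No detection calls came with these values, so it was not established that the Cdx4 probe set was above background on the XAV939 arrays. In bulk RNA, more cells that express a gene and more of its RNA per cell cannot be told apart.

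Against this background, 9.65% of all genes passed the threshold, an adjusted p of 0.05, and 5.31% passed as higher with CHIR99021. Groups did not overlap for 25.1% of all genes, and for 14.1% with CHIR99021 higher. Ordered by log2 difference from the highest, Cdx2 stood at place 7, Cdx1 at place 9 and Cdx4 at place 588 of 19937.

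**Figure D1:**
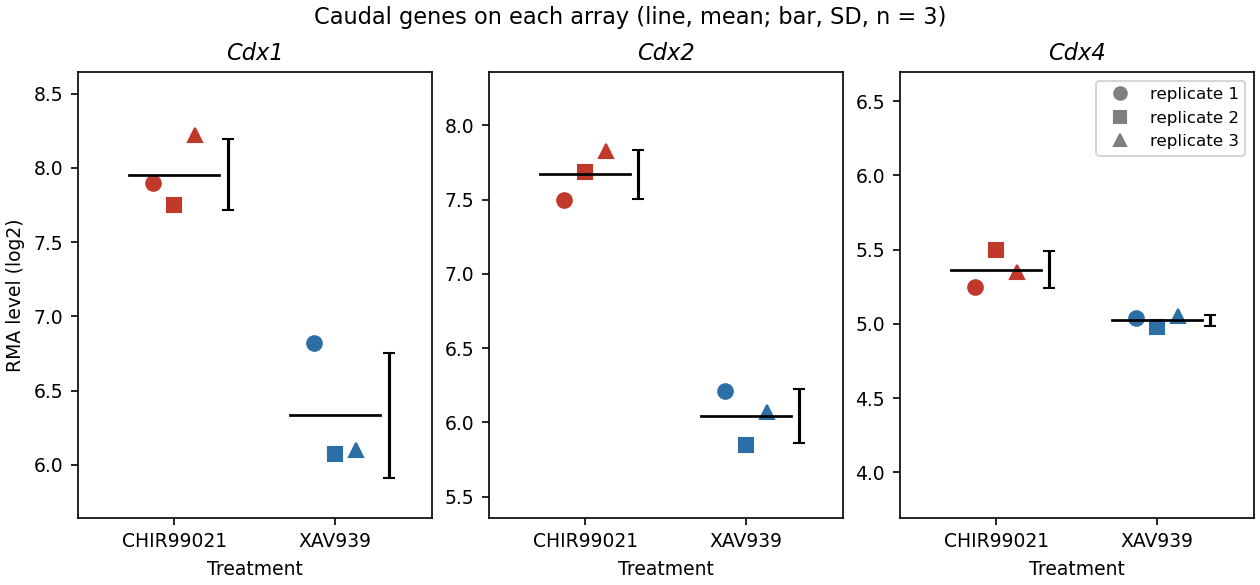
RMA log2 level of Cdx1, Cdx2 and Cdx4 (one panel each) on every array, with CHIR99021 in red on the left and XAV939 in blue on the right. Symbols mark the replicate, lines the mean and bars the SD of 3 arrays. Cdx1 and Cdx2 were 3.08-fold and 3.09-fold higher with CHIR99021 and Cdx4 1.27-fold, and the Cdx1 point of XAV939 replicate 1 lies at 6.82, above 6.07 and 6.10.

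The family members were next compared within arrays, by asking whether the log2 distance between a pair of caudal genes changed with treatment. Cdx2 minus Cdx1 averaged -0.28 ± 0.19 with CHIR99021 and -0.29 ± 0.29 with XAV939 (SD, n = 3 each), and the values overlapped. The change between treatments was 0.0057, with an exact two-sided permutation p of 1, and it lay between -0.15 and 0.13 when 1 array was left out. Cdx2 minus Cdx4 averaged 2.31 ± 0.15 with CHIR99021 and 1.02 ± 0.15 with XAV939 (SD, n = 3 each), a change of 1.29. Cdx1 minus Cdx4 averaged 2.59 ± 0.31 with CHIR99021 and 1.31 ± 0.41 with XAV939 (SD, n = 3 each), a change of 1.28. In both comparisons with Cdx4 the treatments did not overlap. The exact permutation p was 0.1 for each, the smallest that 3 against 3 arrays allow, and 0.15 adjusted over the 3 pairs. These are distances between probe set values, not between transcript amounts.

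Cdx1 also varied between replicates of the same treatment. Its pooled within-treatment SD was 0.34 log2 units, against a median of 0.07 over all genes, which placed it at percentile 99.95. The pooled SD was 0.17 for Cdx2, also high at percentile 97.2, and 0.09 for Cdx4, at percentile 67.0. XAV939 replicate 1 was 0.73 above the mean of XAV939 replicates 2 and 3 for Cdx1, 0.25 above it for Cdx2 and 0.02 above it for Cdx4. Without that array the difference of Cdx1 was 1.87, that of Cdx2 1.71 and that of Cdx4 0.35, and each passed the limma threshold.

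Promoters of Cdx2 and Cdx4 are shown as the sequences of the family members with a window in the table used, one with a large and one with a small rise. The windows come from RefSeq's GRCm38.p6 annotation and cover 250 bases before and 50 bases from the annotated start, 5′ to 3′ on the strand of the gene. Cdx2 is at chr5:147307200-147307499 on the minus strand and Cdx4 at chrX:103321148-103321447 on the plus strand. Capitals mark the POU octamer ATGCAAAT and the core of the cAMP response element GACGTC. Symbols matched for 2 of the 3 genes.
Cdx2: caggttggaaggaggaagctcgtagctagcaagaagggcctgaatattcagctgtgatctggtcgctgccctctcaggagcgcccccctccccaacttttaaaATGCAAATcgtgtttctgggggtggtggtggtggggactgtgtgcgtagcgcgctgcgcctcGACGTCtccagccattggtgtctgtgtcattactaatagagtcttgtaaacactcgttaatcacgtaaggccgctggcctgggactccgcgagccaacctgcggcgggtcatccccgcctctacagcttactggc
Cdx4: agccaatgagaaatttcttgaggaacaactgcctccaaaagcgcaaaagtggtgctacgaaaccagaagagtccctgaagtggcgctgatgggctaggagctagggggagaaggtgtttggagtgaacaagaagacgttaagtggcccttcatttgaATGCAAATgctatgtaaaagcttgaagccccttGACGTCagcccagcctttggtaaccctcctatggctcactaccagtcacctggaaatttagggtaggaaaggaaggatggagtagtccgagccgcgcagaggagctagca

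The octamer, the sequence bound by POU factors such as the product of Pou5f1, began at position -147 from the start in Cdx2 and -93 in Cdx4. GACGTC began at -85 in Cdx2 and -60 in Cdx4. Both strands were searched, and these motifs do not overlap each other. Of 32851 promoter windows of the same length, 1.74% held the octamer and 4.40% held GACGTC, and 19 windows of 17 genes held both. A CCAAT box, held by 37.4% of windows, was present once in each. The TCF/LEF cores CTTTGA and CTTTGT, held by 16.0% and 18.7% of windows, were not among the letters of either window. The same was true of the nuclear receptor half-site AGGTCA (16.3% of windows) and of the caudal motif TTTATG (11.9%). The octamer and GACGTC were picked after the windows had been read, and a match is a description, not a binding site.

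Signalling genes known to act upstream of caudal genes moved in both directions. Of 24 measured genes of the Wnt, FGF, retinoic acid, BMP, Hippo and Notch pathways, 9 rose, 6 fell and 9 did not pass, with a median log2 difference of 0.11 against 0.0066 over all genes. That 62.5% of the group passed is to be read against 9.65% of all genes, with the reservation that the list was assembled with earlier results of these arrays known. Axin2, a feedback inhibitor induced by β-catenin, had log2 levels of 7.48, 7.41 and 7.54 with CHIR99021, against 5.46, 5.79 and 5.46 with XAV939. It rose by 1.91 ± 0.09, more than Cdx1 or Cdx2. Unlike Cdx1, it was not raised on XAV939 replicate 1. Wnt3, the ligand needed for gastrulation, rose by 0.86 ± 0.10 and Wnt8a, a ligand of the posterior epiblast, by 0.48 ± 0.06. Lef1, a β-catenin partner, rose by 0.69 ± 0.06.

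The BMP, Hippo and FGF members differed among themselves. Bmp4, which signals to the trophectoderm and posterior epiblast, was at 9.71, 9.83 and 9.74 with CHIR99021 and at 8.61, 8.67 and 8.65 with XAV939, a rise of 1.12 ± 0.05. Tead4, the Hippo pathway factor upstream of Cdx2 in the blastocyst, was at 7.43, 7.58 and 7.78 with CHIR99021 and at 7.11, 6.98 and 6.87 with XAV939. Its difference was 0.61 ± 0.09, with a limma adjusted p of 0.00139. Fgf8, a ligand of the streak, differed by 0.33 ± 0.07 and lost its call when CHIR99021 replicate 1, CHIR99021 replicate 3 or XAV939 replicate 2 was omitted, with limma adjusted p of 0.0567 to 0.0800. Smad1, Smad4 and Smad5, which carry BMP signals, and Yap1, the coactivator of Tead4, did not pass, nor did Rbpj, the DNA-binding factor of the Notch pathway.

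The genes that fell included Tcf7l1, a TCF family repressor, by 0.79 (not called with all probe sets tested, adjusted p = 0.0519), Rarg, a retinoic acid receptor, by 0.43, and Fgf4, the FGF ligand of the epiblast, by 0.38. Rara, Notch1 and Tcf7l2 had differences of -0.26, -0.28 and -0.25. Their calls were lost when single arrays were left out, Rara without any array other than CHIR99021 replicate 3 (adjusted p 0.0694 to 0.159). Notch1 lost its call when CHIR99021 replicate 1, CHIR99021 replicate 2, XAV939 replicate 1 or XAV939 replicate 3 was omitted (0.0572 to 0.123). Tcf7l2 lost it when CHIR99021 replicate 1, CHIR99021 replicate 2, XAV939 replicate 2 or XAV939 replicate 3 was omitted (0.0688 to 0.114). Ctnnb1, the tagged gene itself, differed by 0.02 ± 0.05 and did not pass (limma adjusted p = 0.922).

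Array profiles most like those of the caudal genes were listed by Euclidean distance between log2 profiles over the 6 arrays, each centred on its own mean. For Cdx1 the nearest were Gpx2, a glutathione peroxidase (distance 0.42), Sp5, a transcription factor induced by β-catenin (0.45), Cdx2 (0.49), Mixl1, a mesendoderm homeobox gene (0.50), and Ntn1, which encodes the guidance cue netrin (0.54). Gpx2 and Sp5 shared the high value of XAV939 replicate 1. Gpx2 was at 7.01 there, against 6.64 and 6.54 on the other XAV939 arrays, and Sp5 at 6.51, against 6.10 and 6.14. The level of Sp5 was 7.92 on CHIR99021 replicate 3, against 7.46 and 7.42 on replicates 1 and 2, the order also seen for Cdx1.

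For Cdx2 the nearest were Ntn1 (0.29), Wnt5a, a Wnt ligand that elongates the body axis (0.29), Pglyrp1, a peptidoglycan recognition protein (0.31), Gprc5a, an orphan G protein-coupled receptor (0.32), and the imprinted zinc finger gene Plagl1 (0.33). For Cdx4 they were Cyp2s1, a cytochrome P450 gene (0.09), Maff, a small Maf factor (0.09), Limch1 (0.11), Tmem102 (0.11) and Zfp61 (0.12), each with a difference between 0.27 and 0.38. Zfp61 lost its call when CHIR99021 replicate 2, CHIR99021 replicate 3, XAV939 replicate 1 or XAV939 replicate 2 was omitted (limma adjusted p 0.0543 to 0.119). Cdx4 was 1.61 from Cdx2 and 1.73 from Cdx1. Small differences make small distances, so distances were not compared between caudal genes. The profiles share the treatment contrast and are a description.

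**Figure D2:**
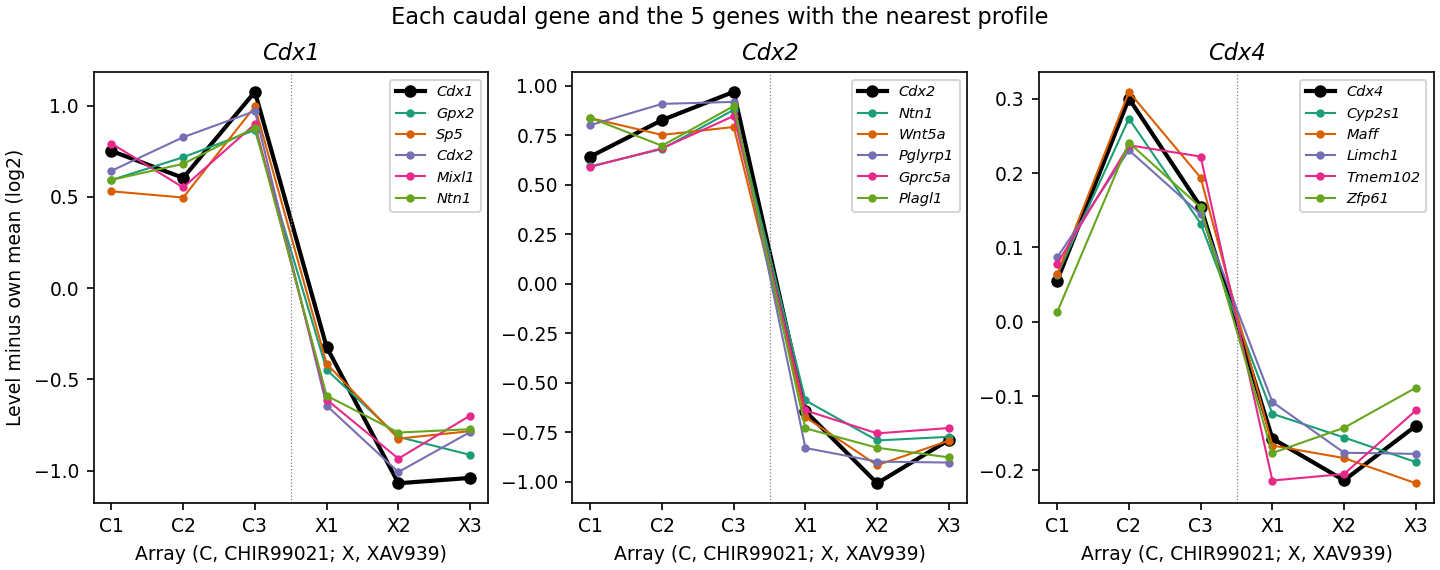
Log2 level minus the gene's own mean on each array (C, CHIR99021 replicates 1 to 3; X, XAV939 replicates 1 to 3) for each caudal gene in black and the 5 genes nearest to it in colour. The vertical scales differ between panels. Cdx1, Gpx2 and Sp5 are raised on XAV939 replicate 1, by 0.73, 0.42 and 0.39 over the mean of the other XAV939 arrays. Cdx2, Mixl1 and Ntn1 are raised there by 0.25, 0.21 and 0.19.

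The chromosomal neighbours of the caudal genes were examined next, as the 3 nearest measured genes on each side in the order of the RefSeq gene table. Of 18 neighbours, 1 rose, none fell and 17 did not pass, with differences of -0.16 to 0.16 among those that did not. The share is near the 9.65% of all genes. The neighbour that rose was Pdgfrb, the gene next to Cdx1, which encodes a platelet-derived growth factor receptor of mesenchymal cells. Its log2 levels were 6.61, 6.59 and 6.58 with CHIR99021, against 5.94 to 6.08 with XAV939. The difference was 0.59 ± 0.05, with a limma adjusted p of 6.34e-05. Pdgfrb is also a feeder fibroblast marker, and 8 of those 18 markers rose, against 5.31% of all genes. The part of feeder cells in its rise was not tested.

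Cdx2 belongs to the ParaHox cluster, a sister of the Hox clusters, with Pdx1, the pancreas and duodenum regulator, and Gsx1, a gene of forebrain patterning. Pdx1 averaged 5.26 ± 0.15 after CHIR99021 and 5.26 ± 0.02 after XAV939 (SD, n = 3 each). Gsx1 averaged 5.63 ± 0.18 after CHIR99021 and 5.76 ± 0.20 after XAV939 (SD, n = 3 each). Neither passed in limma (adjusted p = 0.998 and 0.594), nor did Gsx2, a further ParaHox gene (-0.04 ± 0.08, adjusted p = 0.885). On the other side of Cdx2, Urad differed by 0.10 ± 0.07, the cytokine receptor gene Flt3 by 0.00061 ± 0.078 and Pan3, of the deadenylation complex, by 0.09 ± 0.06. Around Cdx4, Chic1 differed by -0.16 ± 0.08, Nap1l2 by -0.13 ± 0.06 and Tsx by -0.05 ± 0.06, none past the limma threshold.

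**Figure D3:**
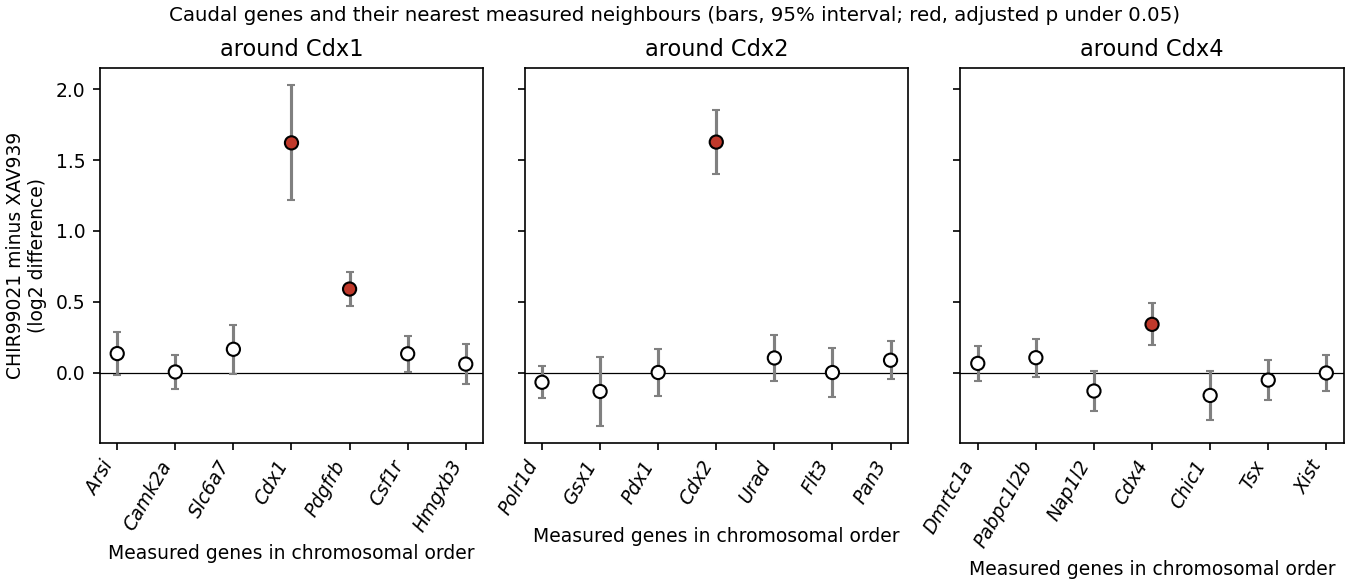
Log2 difference, CHIR99021 minus XAV939, of each caudal gene and of the 3 nearest measured genes on each side, in chromosomal order. Bars are 95% intervals of the limma fit and red marks an adjusted p under 0.05. Next to the caudal genes at 1.62, 1.63 and 0.34, Pdgfrb stands at 0.59 and the other neighbours lie between -0.16 and 0.16.

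Genes active beside caudal genes in the posterior growth zone of the embryo rose more often than they fell. Of 19 measured members, 11 rose, 1 fell and 7 did not pass, against 5.31% of all genes higher and 4.34% lower, and their median log2 difference was 0.33. Cyp26a1, Fgf8 and Wnt3a were also counted among the upstream signalling genes. Wnt5a was at 6.83, 6.74 and 6.78 with CHIR99021, against 5.31, 5.07 and 5.19 with XAV939, a rise of 1.59 ± 0.07. Cyp26a1, which degrades retinoic acid, was at 6.77, 6.74 and 6.24 with CHIR99021 and at 5.47, 5.32 and 5.39 with XAV939, a rise of 1.19 ± 0.12. These groups did not overlap, and CHIR99021 replicate 3 was the lowest of its group for Cyp26a1. Sp5 rose by 1.35 ± 0.14 and Nkx1-2, a homeobox gene of axial progenitors, by 0.71 ± 0.10. Evx1, a homeobox gene of the posterior streak, rose by 0.44 ± 0.08.

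Wnt5b, a ligand of the streak, shared with Cdx1 the spread between XAV939 arrays. Its levels were 7.26, 7.25 and 7.29 with CHIR99021, against 6.76, 5.97 and 6.29 with XAV939, and it rose by 0.92 ± 0.15. Lfng, a glycosyltransferase that modulates Notch in the segmentation clock, was the member that fell, by 0.66. Wnt3a, the ligand of the tail bud, differed by 0.11 and did not pass (limma adjusted p = 0.692).

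Hox genes, the best-known genes downstream of caudal proteins, differed far less than Cdx1 and Cdx2. Among 37 measured Hox genes, 4 were higher and 33 did not pass, with none lower. Their median log2 difference was 0.07. That 10.8% rose is to be read against 5.31% of all genes. The difference was above 0 for 33 of 37 Hox genes, against 53.0% of all genes. Hoxd9 (0.42 ± 0.06), Hoxd10 (0.37 ± 0.06), Hoxd8 (0.35 ± 0.05) and Hoxd4 (0.32 ± 0.06) were the genes that rose, 4 of the 9 measured genes of the HoxD cluster. Hoxd9 was at 6.24, 6.25 and 6.14 with CHIR99021, against 5.87, 5.76 and 5.72 with XAV939. Hoxd10 was at 5.49, 5.58 and 5.69 with CHIR99021, against 5.27, 5.19 and 5.20 with XAV939. By mean level over all arrays, Hoxd4, Hoxd8, Hoxd9 and Hoxd10 lay at percentiles 50.8, 15.0, 48.8 and 38.3 of all genes. Without detection calls it was not established that the Hox probe sets were above background.

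The 4 HoxD rises were close in size to that of Cdx4 and below those of Cdx1 and Cdx2. The 95% intervals of Cdx1 and Cdx2 began at 1.21 and 1.40. None of the 10 HoxA, 9 HoxB and 9 HoxC genes passed, with Hoxa9 at 0.26 ± 0.08 (limma adjusted p = 0.0701) and Hoxb9 at 0.20 ± 0.07 (limma adjusted p = 0.128). The medians were 0.07 in HoxA, 0.06 in HoxB, 0.05 in HoxC and 0.18 in HoxD. By position along the clusters they were 0.06 for paralog groups 1 to 4, 0.09 for groups 5 to 9 and 0.05 for groups 10 to 13. Without XAV939 replicate 1, the count of Hox genes called was 9 in place of 4, with Hoxa9 at 0.35 (adjusted p = 0.00783) and Hoxb9 at 0.25 (adjusted p = 0.0391) among them. The count over all genes also moved when 1 array was left out, to between 1254 and 2247 in place of 1924.

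**Figure D4:**
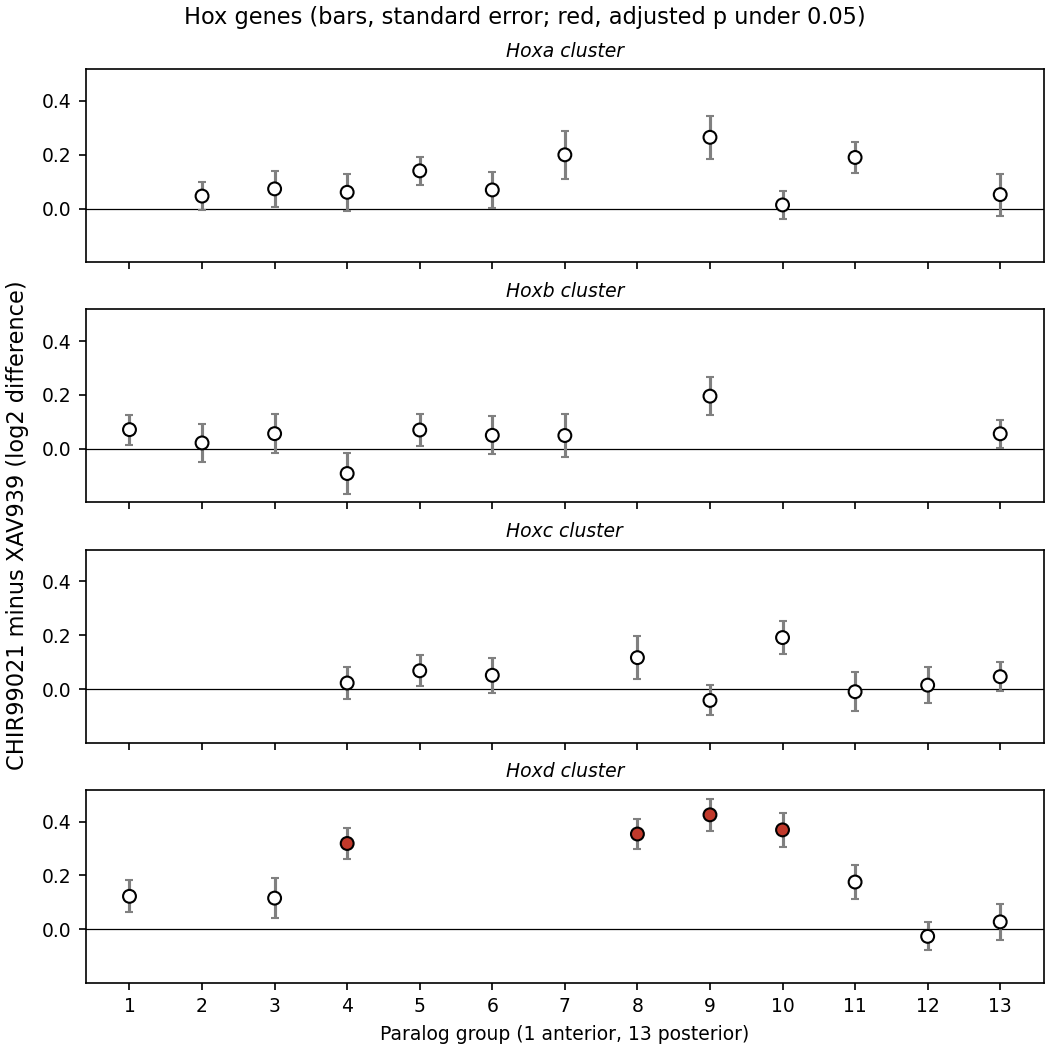
Log2 difference, CHIR99021 minus XAV939, with its standard error, of the 37 measured Hox genes by cluster (rows) and paralog group (horizontal axis). Red marks an adjusted p under 0.05. The 4 red points, between 0.32 and 0.42, are Hoxd4, Hoxd8, Hoxd9 and Hoxd10.

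Trophoblast genes, the setting of the early role of Cdx2, divided between genes that rose and genes that fell. Of 22 measured genes, 8 rose, 3 fell and 11 did not pass, against 5.31% and 4.34% of all genes, with a median log2 difference of 0.06. Eomes, a T-box gene that acts with Cdx2 in the trophectoderm and is also active in the streak, was at 6.94, 6.85 and 7.08 with CHIR99021, against 5.79, 5.65 and 5.90 with XAV939. Its rise was 1.18 ± 0.08. The simple-epithelium keratin genes Krt18 (1.19 ± 0.07), Krt19 (1.08 ± 0.06), Krt8 (0.93 ± 0.07) and Krt7 (0.88 ± 0.06) rose as well. Tfap2c, an AP-2 factor of trophoblast and germ cells, rose by 0.24 ± 0.05, a call lost when CHIR99021 replicate 1, CHIR99021 replicate 2 or XAV939 replicate 3 was omitted (limma adjusted p 0.0744 to 0.0837).

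Tead4, given above, is a further member that rose (0.61 ± 0.09). Gata3, Elf5 and Hand1 did not pass. Gata3, a trophectoderm factor that acts in parallel with Cdx2, was at 5.94, 5.93 and 6.06 with CHIR99021, against 5.81, 5.77 and 5.56 with XAV939. Its limma adjusted p was 0.0524, and 0.0273 without XAV939 replicate 1. Elf5, a trophoblast stem cell factor, differed by 0.01 ± 0.05 and Hand1, a factor of trophoblast giant cells, by 0.07 ± 0.07. Fgfr2, the receptor through which FGF4 maintains trophoblast stem cells, fell by 0.98, with log2 levels of 6.07, 5.95 and 6.18 with CHIR99021 against 7.13, 6.96 and 7.06 with XAV939. Id2, an inhibitor of helix-loop-helix factors found in early trophectoderm, fell by 0.47. Dab2, an endocytic adaptor, differed by -0.35 ± 0.09, a call lost when CHIR99021 replicate 1, CHIR99021 replicate 2, XAV939 replicate 1 or XAV939 replicate 2 was omitted (limma adjusted p 0.0673 to 0.126).

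Pluripotency factors, some of which oppose or repress Cdx2, moved in both directions. Of 6 such genes, 3 rose, 1 fell and 2 did not pass, against 5.31% of all genes higher and 4.34% lower. All but Sall4 were also among the stem cell markers counted above, so these counts are not separate. Pou5f1, whose product and Cdx2 repress each other in the blastocyst, was at 11.28, 11.26 and 11.45 with CHIR99021 and at 11.58, 11.48 and 11.48 with XAV939. The groups did not overlap, but its difference of -0.19 ± 0.06 did not pass (limma adjusted p = 0.115, and 0.0396 without CHIR99021 replicate 3). Nanog, another repressor of Cdx2, rose by 0.49 ± 0.05, with 11.01, 11.04 and 11.04 on the CHIR99021 arrays against 10.52, 10.61 and 10.48 on the XAV939 arrays. Klf4 and Esrrb, factors of naive pluripotency, rose by 0.81 ± 0.07 and 0.60 ± 0.06. Sox2 differed by 0.0057 ± 0.052. Sall4, a zinc finger partner of the protein encoded by Pou5f1, had a difference of -0.20 ± 0.05, and its call was lost without any 1 of the 6 arrays (limma adjusted p 0.0645 to 0.169).

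Intestinal genes that Cdx1 and Cdx2 act on in the gut gave no call. Among 23 measured genes, none passed in limma in either direction, to be read against 9.65% of all genes. Of the 23, 1 had an unadjusted limma p under 0.05, and 1 was called when arrays were weighted by quality. The median log2 difference of the 23 genes was -0.0073, with a range of -0.08 to 0.18. Mep1b, a brush-border protease, differed by 0.18 ± 0.06 (limma adjusted p = 0.131, and 0.0323 with weighted arrays) and Slc26a3, a chloride exchanger of the colon, by 0.11 ± 0.06 (adjusted p = 0.309). Muc2, the goblet cell mucin, differed by -0.03 ± 0.06, Cdh17, liver-intestine cadherin, by 0.01 ± 0.05 and Sis, sucrase-isomaltase, by -0.07 ± 0.05. Mean log2 levels of Mep1b, Slc26a3, Muc2, Cdh17 and Sis over all arrays were 5.21, 3.93, 4.95, 4.39 and 3.83. These lay at percentiles 34.3, 5.40, 28.2, 15.0 and 3.72 of all genes. Without detection calls it was not established that these probe sets were above background.

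Blood and endothelial progenitor genes, the setting in which Cdx4 is best known, showed 1 rise and 2 falls among 18 genes, and 15 did not pass. The share called, 16.7%, compares with 9.65% of all genes. Runx1, a regulator of blood stem cell emergence, was at 6.55, 6.66 and 6.67 with CHIR99021 and at 5.72, 5.65 and 5.75 with XAV939, a rise of 0.92 ± 0.06. Myb, a regulator of blood progenitors, fell by 0.59 and Etv2, a regulator of the endothelial and blood lineages, by 0.28 (-0.28 ± 0.05). Kdr, the VEGF receptor of their common progenitors, differed by 0.18 ± 0.05 (limma adjusted p = 0.0562). Tal1 and Gata1, further defining factors of the lineage, did not pass.

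**Figure D5:**
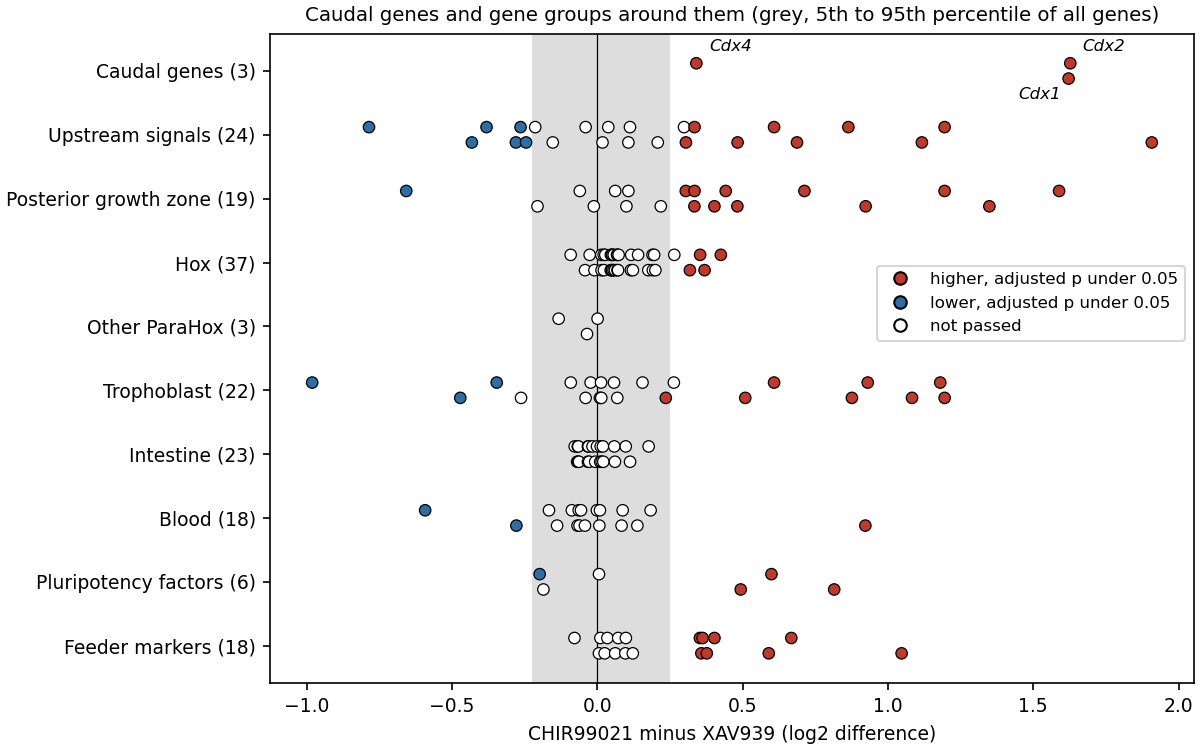
Log2 difference, CHIR99021 minus XAV939, of the 3 caudal genes (top row) and of the measured genes of each group (number in brackets), with red for higher and blue for lower at an adjusted p under 0.05 and white for not passed. The grey band spans the 5th to 95th percentile of all genes, -0.22 to 0.25. Cdx1 and Cdx2 at 1.62 and 1.63 lie beyond all Hox, intestinal and trophoblast genes. In the row of upstream signals Axin2 lies further out, at 1.91, and in the posterior row Wnt5a lies close by, at 1.59. Cdx4 lies at 0.34, among the Hox genes that rose.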

How the data were processed

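Total RNA of 6 samples was hybridised to Affymetrix arrays. The deposited table gives each probe set as a log2 level, from RMA run by the authors, a tool that the submitters' processing notes name. Neither the RMA version nor a genome build is given in the sources used here. Of 34760 probe sets, 21640 had a single gene in the platform annotation and 1321 had several and were not named. For each gene the probe set with the highest mean was kept, giving 19937 genes.

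CHIR99021 minus XAV939 was tested with limma 3.58.1 (lmFit, eBayes) in R 4.3.3 over all genes, calling genes at a Benjamini-Hochberg adjusted p under 0.05. The fit had 4 residual and 6.15 prior degrees of freedom. The procedure was also run on simulated data without array effects shared between genes, and no result here rests on that run. Scanner files were not used here, so background, scan batch and detection were not tested, and precision is limited by how few arrays there are.

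The caudal genes, gene lists and rules were chosen with earlier results of these data known. Named genes were the caudal genes, the 5 nearest profiles of each, 3 neighbours per side, and from each list all genes past the threshold if 6 or fewer, otherwise the 6 with the largest differences, or the 2 with the smallest p if none passed, with all pluripotency factors and ParaHox genes. This named 73 genes, of which 51 passed, and 22 more were picked once their values had been read. Dcn, Lum, Postn, Wnt3a, Smad1, Smad4, Smad5, Yap1, Rbpj, Tal1 and Gata1 were picked in the same way. Some listed genes had no value and were not analysed here, 2 of 39 in the Hox list among them. Alternatives were another centring, repeated quantile normalisation, filters on level, other probe set choices, other variance models, array weights, a replicate block, a threshold of 0.01 and leaving out each array. Replicate numbers are not said to pair arrays, and deviations of same-numbered arrays correlated at -0.10, 0.06 and -0.14.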

Additional observations from a re-analysis of the deposited data

How the results depend on the processing

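Cdx1 and Cdx2 kept their direction and call in all 17 alternatives, with log2 differences of 1.49 to 1.87 and 1.53 to 1.71. Each caudal gene has 1 probe set, and its difference could change only with another centring, repeated quantile normalisation, array weights or a left-out array. The remaining alternatives could change the call but not the difference or its direction. Cdx4 kept its direction in the 16 alternatives that gave it a value, at 0.28 to 0.40, and its call in all but the test of all probe sets together (0.34, adjusted p = 0.0560). The filter at the 50th percentile of level removed Cdx4. With the replicate block the differences were 1.62, 1.63 and 0.34 for Cdx1, Cdx2 and Cdx4, each past the threshold. The block gave no call that the fit without it had not given among the named genes and lost those of Sall4, Dab2, Rara and Notch1. Leaving out 1 array moved the change in Cdx2 minus Cdx4 between 1.20 and 1.36 and in Cdx1 minus Cdx4 between 1.14 and 1.52.

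The count of all genes called was 1044 with all probe sets tested, 1118 at a threshold of 0.01 and 2857 with array weights, against 1924, and 1254 (without CHIR99021 replicate 2) to 2247 without 1 array. Hox genes called numbered 1 with the 50th percentile filter, where fewer genes were tested, 8 with array weights and 4 to 9 without 1 array (9 without XAV939 replicate 1), against 4. Array weights gave 1 intestinal gene against 0 and 5 blood genes against 3, and the 50th percentile filter gave 1 blood gene. Upstream signalling genes called were 9 with all probe sets tested, against 15. The cause of these changes was not tested where none is given. Of 60 called genes named beside the family, 49 kept direction and call in every alternative that gave a value. Values of 10 uncalled genes, close to 0, changed sign in at least 1 alternative without being called. Signal over background could not be assessed, since no detection call was available.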
